A study of Mus musculus with 18 samples.

Results

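The matrix metalloproteinases (MMPs) and their tissue inhibitors (TIMPs) were followed in mouse dendritic cells (DCs) placed in collagen gels or in suspension. The set held 10 genes, chosen by name with earlier results of these data known, so not blind to their levels. It comprised the proteases Mmp8, Mmp9, Mmp12, Mmp13, Mmp14, Mmp19 and Mmp25 and the inhibitors Timp1, Timp2 and Timp3. These were 10 of the 29875 genes in the count table, and all 10 were among the 13844 genes that passed the filter on low counts. DCs had been grown with GM-CSF from bone marrow of wild-type C57Bl6/J mice aged 8 to 12 weeks, given 200 ng/ml lipopolysaccharide (LPS) on day 8 for 24 hours, and lysed, as the labels give it, 5 hours after a gradient of the chemokine CCL19 was set up. All 18 libraries shared the strain, the growth factor and LPS. The gel groups were collagen (1.7 mg/ml), collagen (2.6 mg/ml), collagen (3.5 mg/ml) and collagen (4.4 mg/ml), with 3 biological replicates each and 12 libraries in all. The same chambers without collagen gave 6 suspension libraries in 2 groups of 3, called suspension (+) and suspension (-) after titles with and without CCL19. The library names of the suspension groups carry the opposite CCL19 wording, so no direction of a CCL19 effect is read here.

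MMPs are zinc proteases that cut collagens, elastin, basement membrane proteins and many cytokines and receptors, and most are made as inactive proenzymes. TIMPs bind the active site of MMPs and so set how much of the protease works near the cell. Mature DCs crawl through interstitial tissue mostly by squeezing through pores, but they carry secreted gelatinase and membrane-anchored MMPs that are also used by other myeloid cells.

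Promoter sequence is printed for the 5 members that passed the test between collagen and suspension, with or without the replicate block described with the comparison, and that had an entry in RefSeq (GRCm38.p6). It is the 150 bases before the transcription start in RefSeq, 5′ to 3′ on the gene's strand, and is shown because these genes moved in opposite directions. By the GENCODE gene positions given below, the Timp2 window lies wholly inside the gene. The windows of Timp3 and Mmp25 overlap the first bases of their genes. The GC boxes printed for Timp2 and Timp3 thus lie inside the GENCODE genes. Capitals mark matches on either strand to the AP-1 site TGANTCA, the TATA box TATAAA or the GC box GGGCGG, which do not share bases with each other in these windows except that the GC boxes of Mmp14 adjoin.
Mmp13 at chr9:7272364-7272513, plus strand: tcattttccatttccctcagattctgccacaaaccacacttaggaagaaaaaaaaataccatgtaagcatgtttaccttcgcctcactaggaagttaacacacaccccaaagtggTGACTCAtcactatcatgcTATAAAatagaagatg
Mmp14 at chr14:54431448-54431597, plus strand: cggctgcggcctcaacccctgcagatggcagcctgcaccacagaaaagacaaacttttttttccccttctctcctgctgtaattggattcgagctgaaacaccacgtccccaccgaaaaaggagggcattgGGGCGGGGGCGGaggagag
Mmp25 at chr17:23645270-23645419, minus strand: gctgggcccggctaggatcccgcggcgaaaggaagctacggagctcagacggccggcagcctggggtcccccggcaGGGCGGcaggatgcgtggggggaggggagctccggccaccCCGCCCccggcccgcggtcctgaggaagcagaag
Timp2 at chr11:118355412-118355561, minus strand: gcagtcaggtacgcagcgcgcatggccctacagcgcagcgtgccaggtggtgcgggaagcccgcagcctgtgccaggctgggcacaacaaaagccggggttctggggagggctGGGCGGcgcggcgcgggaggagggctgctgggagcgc
Timp3 at chr10:86300262-86300411, plus strand: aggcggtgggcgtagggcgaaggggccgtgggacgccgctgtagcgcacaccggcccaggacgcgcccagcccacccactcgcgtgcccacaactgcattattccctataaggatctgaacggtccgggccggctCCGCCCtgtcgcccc

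Mmp13, a collagenase, had an AP-1 match whose first base lay 35 bases before the start and a TATA box match 16 bases before it. Mmp14, Mmp25, Timp2 and Timp3 had neither and held GC box matches, at 19 and 13, 74 and 34, 37, and 15 bases before the start. In the 250 bases before all 32851 starts of the RefSeq table, the AP-1 letters occurred in 6.75%, the TATA box in 12.4% and the GC box in 32.7% of windows. Mmp9 and Mmp19 had no entry. A match describes letters only. GC boxes were held by windows of members higher in collagen with the block (Mmp14, Timp3) and of members lower in collagen with the block (Mmp25, Timp2).

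The genes lie on 7 chromosomes of GRCm38. Mmp13 (chr9:7272514-7283331), Mmp12 (chr9:7344381-7369499) and Mmp8 (chr9:7558456-7568485) sit in 1 cluster on the plus strand with Mmp3, Mmp1a, Mmp10, Mmp27, Mmp20 and Mmp7, none of which exceeded 40 counts in any library. Mmp9 lies at chr2:164940780-164955850, Mmp14 at chr14:54431612-54445364, Mmp19 at chr10:128790910-128800824, Mmp25 at chr17:23628311-23645277, Timp1 at chrX:20870166-20874735, Timp2 at chr11:118301069-118355740 and Timp3 at chr10:86300372-86349506. Timp1 and Timp3 lie within synapsin genes on the opposite strand, Syn1 and Syn3, and Mmp19 overlaps Tmem198b. The strand setting of the counting is not given in the sources used here, so overlapping reads cannot be assigned with certainty. Syn3 had 79 to 398 counts per library against 12 to 215 for Timp3. Its difference between collagen and suspension had the other sign, -0.47 on the log2 scale (edgeR adjusted p = 0.1547), and -0.45 with the replicate block (adjusted p = 0.0584). Tmem198b (-0.62, adjusted p = 0.0341) and Syn1 (-0.49, adjusted p = 0.084) were also lower with the block. Without it they were not called (adjusted p = 0.2837 and 0.4095).

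Library totals ran from 13062944 to 28059839 counts (median 17344953.5), so 3 counts corresponded to 0.107 to 0.23 per 1e6 counts of these unscaled totals. All other CPM are counts scaled to 1e6 of the effective library size. Dendritic cell markers, among them Ccr7, Fscn1, Cd74 and H2-Ab1, summed to 15361 to 51712 CPM in every library. Replicates bearing the same number shared a date and a sequencing lane, and each number held every group once, so the replicate number was a batch that pairs the libraries. The libraries were bulk RNA, in which fewer cells of a type and less RNA per cell cannot be told apart. Bone marrow cultures with GM-CSF can hold other myeloid cells, and summed neutrophil markers ranged from 650 to 10027 CPM, with the highest value in suspension (+) replicate 2.

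Per kilobase of exon, joined over all annotated transcripts of a gene, the membrane-anchored protease Mmp25 had the highest mean in suspension. It was 165.5 ± 26.4 CPM per kb (SD, n = 6). In replicate 1 Mmp12 was above it in both suspension libraries, at 172 against 150.2 CPM per kb in suspension (-) and 157 against 129 in suspension (+). Timp1, an inhibitor that also binds the proenzyme of MMP9, followed at 73.6 ± 21.9 CPM per kb, the neutrophil collagenase Mmp8 at 71.8 ± 25.8 and the macrophage elastase Mmp12 at 67.7 ± 76.3 (SD, n = 6). These 3 values lay within each other's spread. Lower levels were those of Mmp9 (32.6 ± 20.2), Mmp14 (18.8 ± 13.1), Mmp19 (12.3 ± 14.0), Mmp13 (9.07 ± 10.2) and Timp2 (4.84 ± 1.96 CPM per kb), where neighbours again overlapped. Timp3 was last at 0.208 ± 0.095 CPM per kb. The order per kb, here and in collagen, rests on the annotated lengths. These were 7237 bases over 7 transcripts for Mmp12 and 2425 bases over 1 transcript for Mmp8. Without division by length, the suspension means were 878 ± 140 CPM for Mmp25, 490 ± 552 for Mmp12, 174 ± 62.5 for Mmp8 and 65.3 ± 19.5 for Timp1 (SD, n = 6).

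In collagen Timp1 headed the order at 132.7 ± 89.4 CPM per kb (SD, n = 12), ahead of Mmp25 at 99.1 ± 26.9, Mmp12 at 73.0 ± 49.0 and Mmp8 at 66.5 ± 17.3. Timp3 remained the least abundant at 0.717 ± 0.312 CPM per kb, below Timp2 at 2.83 ± 1.15. The order of Timp1 and Mmp25 in collagen was not larger than the spread between libraries.

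**Figure D1:**
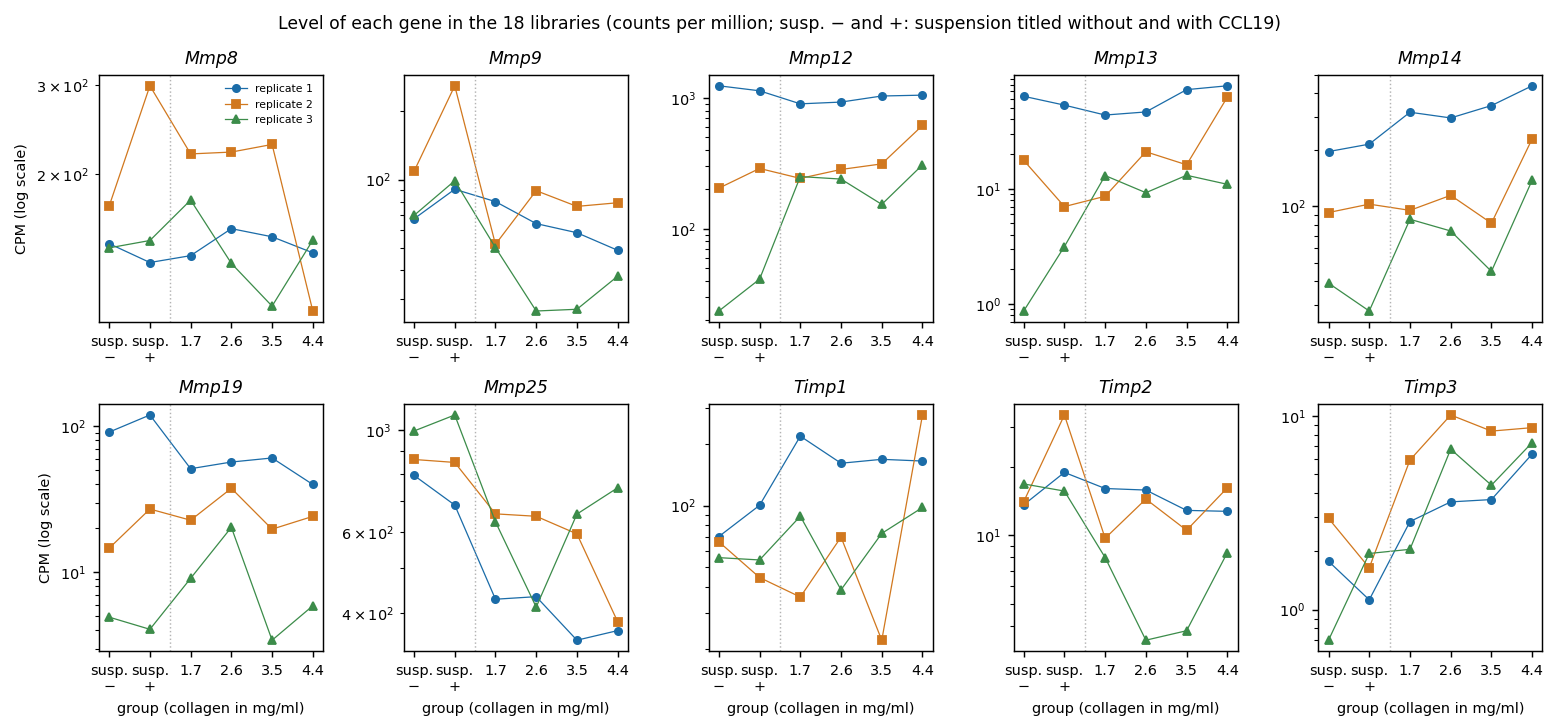
Level of each of the 10 genes in CPM (log axis) in the 2 suspension groups and the 4 collagen groups. Each point is 1 library and each line joins the libraries of 1 replicate. Timp3 lay higher, and Mmp25 lower, in every collagen library than in the suspension libraries of the same replicate, while replicate 1 was the highest in every group for Mmp12, Mmp13, Mmp14 and Mmp19.

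The comparison of all collagen libraries with all suspension libraries asks which members differ between DCs inside a fibrous matrix and DCs without a matrix. The sides may also differ in CCL19. All collagen libraries were titled with a CCL19 source, whereas the pooled suspension libraries were titled partly with and partly without it. Matrix and CCL19 are thus not fully separated, and the part of CCL19 in the differences was not tested. Timp3 rose, and Mmp25 and Mmp9 fell, at a false discovery rate of 0.1 in edgeR's quasi-likelihood test over all genes. That was 3 of 10 members, beside 20.2% of all genes tested (7.78% higher, 12.4% lower). The fit with the replicate number as a block called 6 of 10 members, beside 34.8% of all genes (15.6% higher, 19.3% lower), and added higher Mmp14 and Mmp13 and lower Timp2. The median log2 fold change of the members was -0.01 without and 0.33 with the block, against 0.00 and 0.01 over all genes. The blocked median is the midpoint of Mmp19 (0.00) and Timp1 (0.67), neither of them called, so it does not show a shift of the set.

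**Figure D2:**
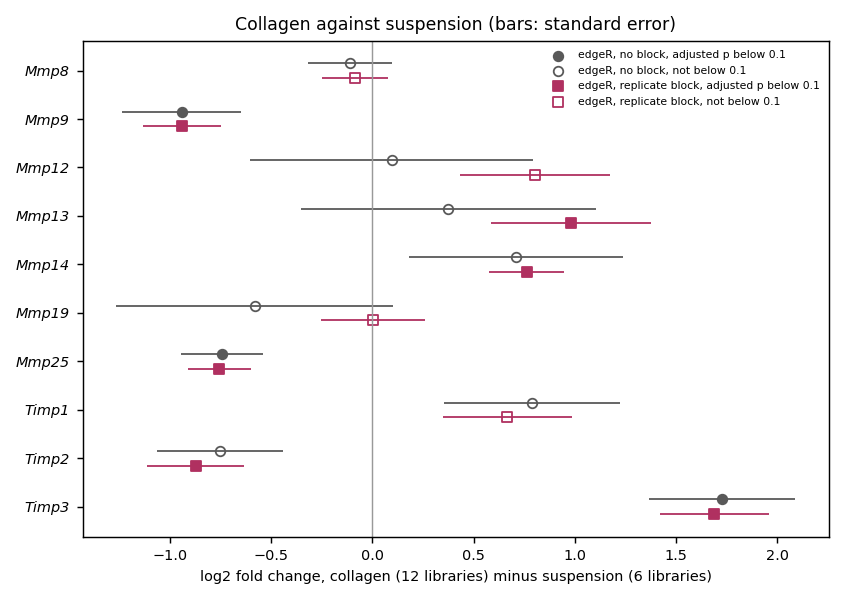
Log2 fold change of each gene, 12 collagen libraries against 6 suspension libraries, with its standard error, in the fits without (circles) and with (squares) the replicate block. Filled symbols mark adjusted p below 0.1. Timp3 had the largest value in both fits, and the error bars of Mmp12, Mmp13, Mmp14 and Mmp19 were shorter with the block.

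Mmp25 encodes a GPI-anchored protease of leukocytes. In replicate 1 its level was 796 CPM in suspension (-) and 686 CPM in suspension (+), against 428, 434, 349 and 366 CPM from the lowest to the highest collagen density. In replicate 2 the suspension levels were 862 and 850 CPM and the collagen levels 657, 649, 594 and 382 CPM. In replicate 3 they were 995 and 1078 CPM against 631, 411, 656 and 748 CPM. Every collagen library was below both suspension libraries of its replicate, and over all replicates only collagen (4.4 mg/ml) replicate 3 exceeded the lowest suspension library. Mmp25 fell by 0.74 on the log2 scale (SE 0.20, edgeR adjusted p = 0.0237), a fold of 0.597, and by 0.76 with the block (adjusted p = 0.0017). A two-sided exact permutation of the library labels gave p = 0.0008619 for log2 CPM. Labels were permuted over all 18 libraries, here and for the other members, so the pairing by replicate was ignored. Without replicate 1 or without replicate 2 the call was lost in the fit without the block (adjusted p = 0.1193 and 0.1763).

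Mmp9 encodes the gelatinase that digests type IV collagen and denatured collagen. Its levels in replicate 1 were 67.3 and 90.7 CPM in suspension (-) and (+), against 80.0, 64.1, 58.5 and 49.0 CPM with rising density. Replicate 2 had 109 and 257 CPM in suspension and 52.0, 89.4, 76.3 and 79.1 CPM in collagen. Replicate 3 had 69.6 and 98.8 CPM in suspension and 50.3, 26.6, 27.0 and 37.7 CPM in collagen. The groups separated in replicates 2 and 3 and overlapped in replicate 1, and suspension (+) replicate 2 stood far above all others. Mmp9 fell by 0.94 (SE 0.29, edgeR adjusted p = 0.043), a fold of 0.52, with an exact permutation p of 0.005656. Without suspension (+) replicate 2 the log2 fold change was -0.62 (adjusted p = 0.1999), and -0.80 (adjusted p = 0.01015) with the block. Without replicate 2 or replicate 3 as a whole the fit without the block gave -0.72 (adjusted p = 0.2632) and -0.85 (adjusted p = 0.1201).

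The library that set the highest Mmp9 value also had the highest summed neutrophil markers. Neutrophil markers summed to 650 to 10027 CPM in suspension (median 2374) and 1067 to 5276 CPM in collagen (median 1837). In replicate 1 the direction was the opposite of these medians. Its suspension sums, 650 and 749 CPM, lay below every collagen sum, 1067 to 1612 CPM. In replicates 2 and 3 the 2 sides overlapped. Of 13 markers tested, 3 were lower in collagen with and without the block, Retnlg by 1.74, Cxcr2 by 1.69 and Ly6g by 1.27 on the log2 scale (edgeR adjusted p = 0.0105, 0.0596 and 0.0245), and none was higher. Over all genes, 12.4% were lower without and 19.3% with the block. Median levels of Retnlg, Cxcr2 and Ly6g over all libraries were 0.94, 3.37 and 8.87 CPM. Those of S100a8, Ngp, S100a9 and Ltf were 396 to 567 CPM, and these genes were not called. The part of these markers in the Mmp9 and Mmp25 differences was not tested.

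Mmp14 encodes a transmembrane protease that cuts fibrillar collagen and activates the proenzyme of MMP2. In replicate 1 it measured 196 and 215 CPM in suspension and 318, 296, 345 and 439 CPM in collagen. In replicate 2 it measured 92.8 and 103 CPM in suspension and 95.4, 115, 81.5 and 229 CPM in collagen. In replicate 3 it measured 39.1 and 27.8 CPM in suspension and 85.5, 74.1, 45.1 and 138 CPM in collagen. Collagen libraries were higher than both suspension libraries in replicates 1 and 3 and overlapped them in replicate 2, while the replicates themselves lay far apart. The log2 fold change was 0.71 (SE 0.53, edgeR adjusted p = 0.417) without the block and 0.76 (SE 0.18, adjusted p = 0.00568) with it. Pooled over replicates, the exact permutation p was 0.1828.

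Mmp13 and Mmp12, neighbours on chromosome 9, encode a collagenase and an elastase. Mmp13 ranged from 0.87 to 63.6 CPM in suspension (median 12.3) and from 8.62 to 78.4 CPM in collagen (median 18.6). Mmp12 ranged from 23.5 to 1242 CPM in suspension (median 247) and from 154 to 1053 CPM in collagen (median 311). Both sets of groups overlapped over nearly the whole range. For Mmp13 the log2 fold change was 0.38 (SE 0.73, edgeR adjusted p = 0.785) without the block and 0.98 (SE 0.39, adjusted p = 0.0738) with it, and the call with the block was lost without any 1 of collagen (4.4 mg/ml) replicate 2, collagen (2.6 mg/ml) replicate 2 and suspension (+) replicate 2, and without replicate 2 or 3 as a whole. Mmp12 gave 0.10 (SE 0.70, adjusted p = 0.947) and, with the block, 0.80 (SE 0.37, adjusted p = 0.12).

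Inside replicates these genes behaved unequally. The mean log2 CPM difference, collagen minus suspension, was 0.00, 0.89 and 2.7 for Mmp13 and -0.28, 0.48 and 2.89 for Mmp12 in replicates 1, 2 and 3. In replicate 3 mean Mmp12 was 32.3 CPM in suspension and 238 CPM in collagen, whereas in replicate 1 it was 1190 and 982 CPM. Mmp14 had 0.75, 0.29 and 1.26, the same sign in all 3 replicates.

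Mmp8 and Mmp19 passed no test of all collagen against all suspension libraries. At 4.4 mg/ml against suspension, Mmp8 was called with the block and GC and length offsets. Mmp8 ranged from 134 to 299 CPM in suspension and from 108 to 229 CPM in collagen, with a log2 fold change of -0.11 (SE 0.21, edgeR adjusted p = 0.777). Mmp19, a secreted protease of basement membranes, ranged from 4.07 to 120 CPM in suspension and from 3.43 to 60.7 CPM in collagen. Its log2 fold change was -0.58 (SE 0.68, adjusted p = 0.629) without the block and 0.00 (SE 0.26, adjusted p = 0.996) with it. The difference inside replicates had both signs, at -1.02, 0.34 and 0.79.

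Among the inhibitors, Timp3 binds the extracellular matrix and blocks ADAM sheddases as well as MMPs. In replicate 1 it measured 1.78 and 1.12 CPM in suspension (-) and (+) and 2.85, 3.60, 3.70 and 6.36 CPM with rising density. In replicate 2 it measured 2.96 and 1.64 CPM in suspension and 5.93, 10.1, 8.36 and 8.71 CPM in collagen. In replicate 3 it measured 0.70 and 1.95 CPM in suspension and 2.05, 6.74, 4.39 and 7.29 CPM in collagen. Every collagen library lay above both suspension libraries of its replicate, and collagen (4.4 mg/ml) was the highest density in replicates 1 and 3. The counts behind these levels were low, 12 to 215 per library. Timp3 rose by 1.73 on the log2 scale (SE 0.36, edgeR adjusted p = 0.00549), a fold of 3.32, with an exact permutation p of 0.0001616. The values inside replicates were 1.41, 1.83 and 1.87, and the call held in all 18 alternatives (1.56 to 1.86, adjusted p at most 0.07394).

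Timp3 and Mmp25 were the 2 members for which collagen and suspension libraries did not overlap inside any of the 3 replicates. Over all genes tested, 2.43% were separated in this way with collagen higher, as Timp3 was, and 4.19% with collagen lower, as Mmp25 was.

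Timp2 inhibits MMPs and also bridges MMP14 to the proenzyme of MMP2. It ranged from 13.6 to 34.0 CPM in suspension (median 16.3) and from 3.45 to 16.2 CPM in collagen (median 11.7). In replicate 3 all 4 collagen libraries were below both suspension libraries, and in replicates 1 and 2 the groups overlapped. The log2 fold change was -0.75 (SE 0.31, edgeR adjusted p = 0.123) without the block and -0.87 (SE 0.24, adjusted p = 0.0121) with it. Without replicate 3 the blocked value was -0.50 (adjusted p = 0.1397), so the call rested on that replicate.

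Timp1 ranged from 44.6 to 100 CPM in suspension and from 22.1 to 276 CPM in collagen. Its highest library was collagen (4.4 mg/ml) replicate 2 at 276 CPM, and its lowest was collagen (3.5 mg/ml) of the same replicate at 22.1 CPM. The log2 fold change was 0.79 (SE 0.43, edgeR adjusted p = 0.253) without the block and 0.67 (SE 0.32, adjusted p = 0.133) with it. In replicate 1 every collagen library was above both suspension libraries, which was not so in replicates 2 and 3.

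Each density was then set against suspension. The 4 comparisons share the 6 suspension libraries, so their values are given side by side. The mixed CCL19 titles of the suspension libraries apply to these comparisons too. At 1.7 mg/ml no member passed the test with or without the block, beside 2.91% and 0.0361% of all genes with and without it. An unadjusted p under 0.05 was reached by 5 members with the block and 1 without it. The share of all genes under that unadjusted threshold was not counted, so these numbers have no baseline. At 2.6 mg/ml Timp3 was called, beside 7.87% of all genes, and 4 members with the block, beside 21.6%. At 3.5 mg/ml Timp3 was again called, beside 4.9% of all genes, and 4 members with the block, beside 18.4%. At 4.4 mg/ml Timp3 was called, beside 14.8% of all genes, and 7 members with the block, beside 31.9%.

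From the lowest to the highest density, Timp3 had log2 fold changes of 1.09, 2.01, 1.69 and 2.13 against suspension (edgeR adjusted p = 0.571, 0.0293, 0.068 and 0.00818). The calls of this gene at single densities depended on libraries. The value at 2.6 mg/ml was 1.61 (adjusted p = 0.1277) without collagen (2.6 mg/ml) replicate 2, in which fibroblast markers summed to 128 CPM against at most 21.2 CPM in every other library. At 3.5 mg/ml it was 1.71 (adjusted p = 0.117) without suspension (+) replicate 2. At 4.4 mg/ml it was 2.31 (adjusted p = 0.1021) without replicate 2. The call at 2.6 mg/ml was also lost without replicate 2 or replicate 3 (adjusted p = 0.3208 and 0.2601), and that at 3.5 mg/ml without any 1 of the 3 replicates (0.2287 to 0.3765). With the block, Timp3 was called at 2.6 and 3.5 mg/ml whichever replicate was left out.

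With the replicate block, Mmp9 (-0.95, -1.07 and -0.999) and Mmp25 (-0.80, -0.75 and -0.85) were lower at each of the 3 densities above 1.7 mg/ml. Their edgeR adjusted p-values were 0.0361, 0.0251 and 0.0188 for Mmp9 and 0.0293, 0.0445 and 0.0141 for Mmp25. Timp2 was lower at 2.6 mg/ml (-0.91, adjusted p = 0.098) and at 3.5 mg/ml (-1.17, adjusted p = 0.0478). At 3.5 mg/ml none of these 3 genes was called once any 1 replicate was left out (adjusted p from 0.1011 for Mmp25 to 0.4204 for the same gene), although each log2 fold change stayed negative. At 2.6 mg/ml Mmp9 kept its call without replicate 1, Mmp25 without replicate 2 and Timp2 without replicate 1. At 4.4 mg/ml Mmp9 was called whichever replicate was left out, and Mmp25 without replicate 3 (-1.08, adjusted p = 0.01625). With GC and length offsets added to the block, Mmp25 was not called at 3.5 mg/ml and Mmp14 was.

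At 4.4 mg/ml alone the block gave higher Mmp14 (1.45, edgeR adjusted p = 0.00046), Timp1 (1.58, adjusted p = 0.0133), Mmp13 (1.67, adjusted p = 0.0241) and Mmp12 (1.29, adjusted p = 0.0614). In replicate 2 this density had the highest Mmp14, Mmp13, Mmp12 and Timp1 of the 6 libraries. Leaving out that library left Mmp14 called at 1.41 (adjusted p = 0.002916), while Timp1 went to 0.65 (adjusted p = 0.3101), Mmp13 to 0.96 (adjusted p = 0.2507) and Mmp12 to 1.11 (adjusted p = 0.2064). Mmp14 (1.17 to 1.68) and Timp1 (0.88 to 1.91) were called whichever whole replicate was left out, while Mmp13 was lost without replicate 2 and Mmp12 without replicate 2 or 3. The same library had the highest summed macrophage markers of its replicate, 1453 CPM against 457 to 1026 CPM in the other 5. With the block, 5 of 9 macrophage markers tested were higher at 4.4 mg/ml and none was lower, beside 15.8% of all genes called higher. Their part in these differences was not tested.

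**Figure D3:**
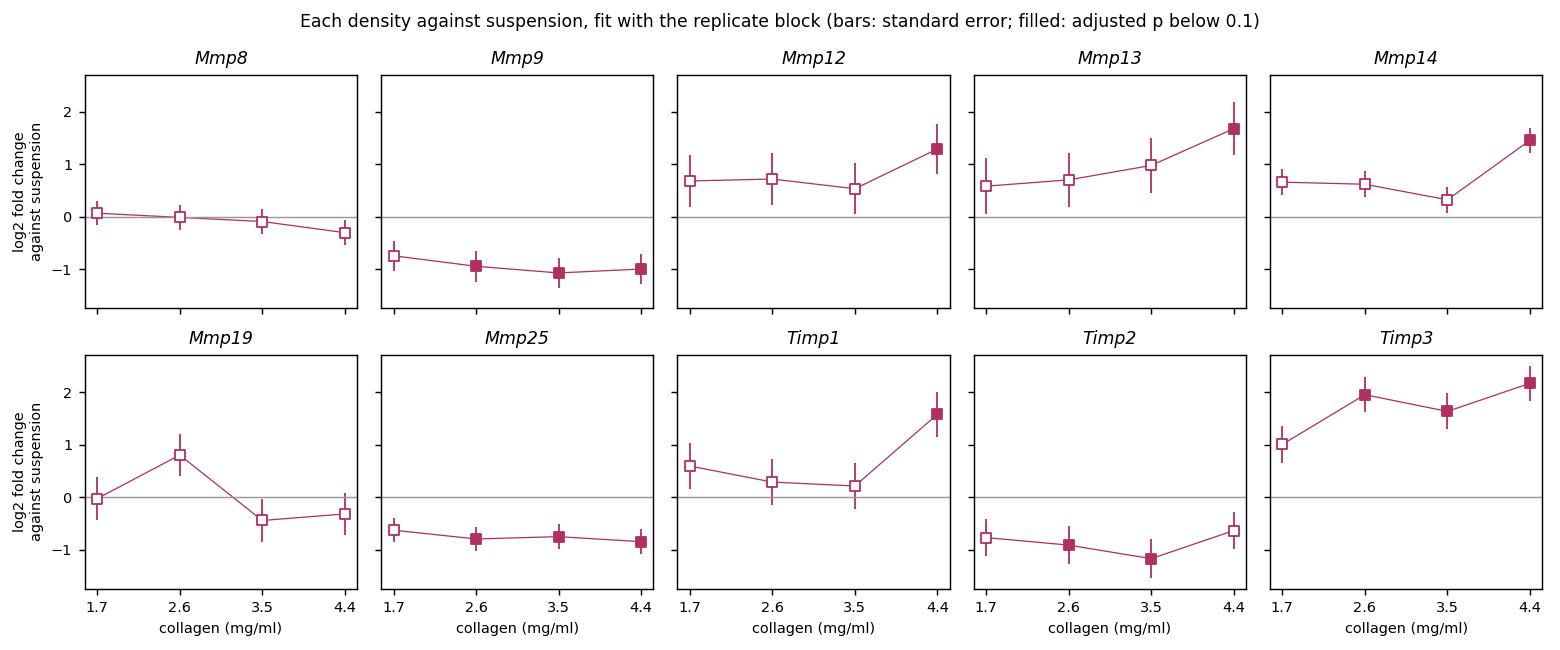
Log2 fold change against suspension at each collagen density (mg/ml), with its standard error, in the fit with the replicate block. Filled squares mark adjusted p below 0.1. Mmp14 and Timp1 reached 1.45 and 1.58 at 4.4 mg/ml, above their values at the lower densities, whereas Mmp9 and Mmp25 were nearly level across densities.

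Whether levels changed with density among the gels was tested directly. In edgeR with TMM scaling alone, no member passed the test of a linear slope over the 4 densities or of collagen (4.4 mg/ml) against collagen (1.7 mg/ml), with or without the block. For each of these comparisons 0.00722% of all genes were called without the block, and 1.45% and 1.73% with it. No member reached an unadjusted p under 0.05 without the block in edgeR, and Mmp14 and Timp3 did so with it in both comparisons. How many of all genes did so was not counted. The slope of Timp3 was 0.31 log2 units per mg/ml (adjusted p = 0.838) without the block and 0.35 (SE 0.14, adjusted p = 0.264) with it. For Mmp14 the blocked slope was 0.23 (SE 0.10, adjusted p = 0.314) and the blocked difference between 4.4 and 1.7 mg/ml was 0.80 (SE 0.29, adjusted p = 0.205). In that last comparison Mmp14 and Timp3 were called by DESeq2 with the block and by edgeR with the block and GC and length offsets, which also called the slope of Timp3. Timp1, Mmp12 and Mmp13 were not called between gels by either.

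The balance between members was taken inside each library, where it does not depend on library size. The ratio of Timp3 to Timp2, in CPM per kb, ran from 0.0197 to 0.101 in suspension (median 0.0439) and from 0.0847 to 0.935 in collagen (median 0.274). Only collagen (1.7 mg/ml) replicate 1 fell below the highest suspension library. The ratio of Timp1 to Mmp9 ran from 0.69 to 4.41 in suspension (median 2.82) and from 1.15 to 13.9 in collagen (median 10.2), with overlap. The ratio of Mmp14 to Mmp25, both membrane-anchored, ran from 0.0229 to 0.279 in suspension (median 0.102) and from 0.0612 to 1.07 in collagen (median 0.162), so that pooled libraries overlapped. Inside each of the 3 replicates, every collagen library lay above both suspension libraries for Mmp14 to Mmp25 and for Timp3 to Timp2. For Timp1 to Mmp9 this held in replicates 1 and 3 and not in replicate 2. These ratios pair genes whose differences were known, so they are a description without a test.

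The share of the spread that lay between replicates divided the members. Of the sum of squares of log2 CPM over 18 libraries, the replicate took 82.4% for Mmp19, 72.9% for Mmp14, 68.5% for Mmp12 and 63.5% for Mmp13. The group took 72.4% for Timp3, 56.9% for Mmp25 and 45% for Mmp9. Replicate 1 had the highest level in all 6 groups for Mmp12, Mmp13, Mmp14 and Mmp19, 4 of 10 members beside 6.28% of all genes tested. Summed macrophage markers were 1472 to 2236 CPM in replicate 1, 457 to 1453 CPM in replicate 2 and 333 to 799 CPM in replicate 3. Adgre1 and Csf1r carried most of that sum, and Cd163 had at most 2 counts in any library. The part of macrophage markers in the replicate differences of these 4 genes was not tested.

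**Figure D4:**
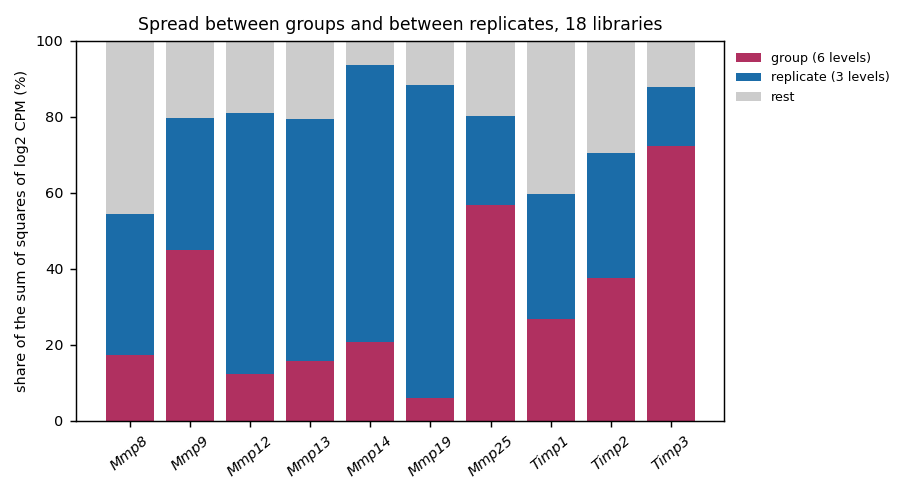
Share (%) of the sum of squares of log2 CPM over 18 libraries that lay between the 6 groups, between the 3 replicates and in the rest, for each gene. Timp3 had the largest group share (72.4%) and Mmp19 the largest replicate share (82.4%).

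Other genes of the pathway were taken from lists by name. Of 17 further MMP and TIMP genes, 14 were in the table and 4 were tested (Mmp2, Mmp10, Mmp23 and Mmp27), and none was called between collagen and suspension in either fit. The 4 log2 fold changes ran from -0.87 for Mmp10 to 0.60 for Mmp27. Of 15 ADAM and ADAMTS proteases 11 were tested and none was called without the block, beside 20.2% of all genes. With the block 1 was called, beside 34.8% of all genes. This was Adamts1, an aggrecan-cleaving protease with at most 109 counts (3.33, edgeR adjusted p = 0.0655).

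Among activators, partners and other inhibitors, 13 of 18 genes were tested. Without the block 1 was called higher and 1 lower, beside 7.78% and 12.4% of all genes. Serpinb2, the plasminogen activator inhibitor of macrophages and other cells, rose by 1.84 (SE 0.32, edgeR adjusted p = 0.00189), and Lrp1, the endocytic receptor that clears MMPs and TIMPs, fell by 0.99 (SE 0.34, adjusted p = 0.0673). With the block the count was 2 higher and 2 lower, beside 15.6% and 19.3% of all genes. The block added Plaur, the receptor of urokinase, at 0.77 (adjusted p = 0.0163) and Reck, a membrane-anchored MMP inhibitor, at -0.96 (adjusted p = 0.0472). Furin, which activates membrane-type proenzymes, had -0.40 (SE 0.43, adjusted p = 0.596).

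Marker genes of other cells moved with the groups. All 7 eosinophil markers tested were lower in collagen in both fits, led by Ear1, Ccr3 and Ear6 (-5.06, -3.51 and -3.40 on the log2 scale, edgeR adjusted p = 0.000479, 0.000583 and 0.000668), and their sum was 117 to 1339 CPM in suspension and 14.0 to 168 CPM in collagen. Of 9 macrophage markers none was called without and 5 were higher with the block, with sums of 359 to 1987 CPM in suspension and 333 to 2236 CPM in collagen. Of 6 fibroblast markers none was called without and 2 were higher with the block, Dcn and Lum, with sums of 8.11 to 18.5 CPM in suspension and 11.2 to 128 CPM in collagen. With the block, 15.6% of all genes were called higher. Kit, of 6 mast cell and basophil markers, was lower (-1.11, adjusted p = 0.00308). Of 10 dendritic cell markers Flt3 (-1.12) and Ciita (-1.03) were lower and none was higher without the block, and with it 2 were lower and 2 were higher (Itgax at 0.72 and Batf3 at 0.53). Their part in the MMP and TIMP differences was not tested.

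**Figure D5:**
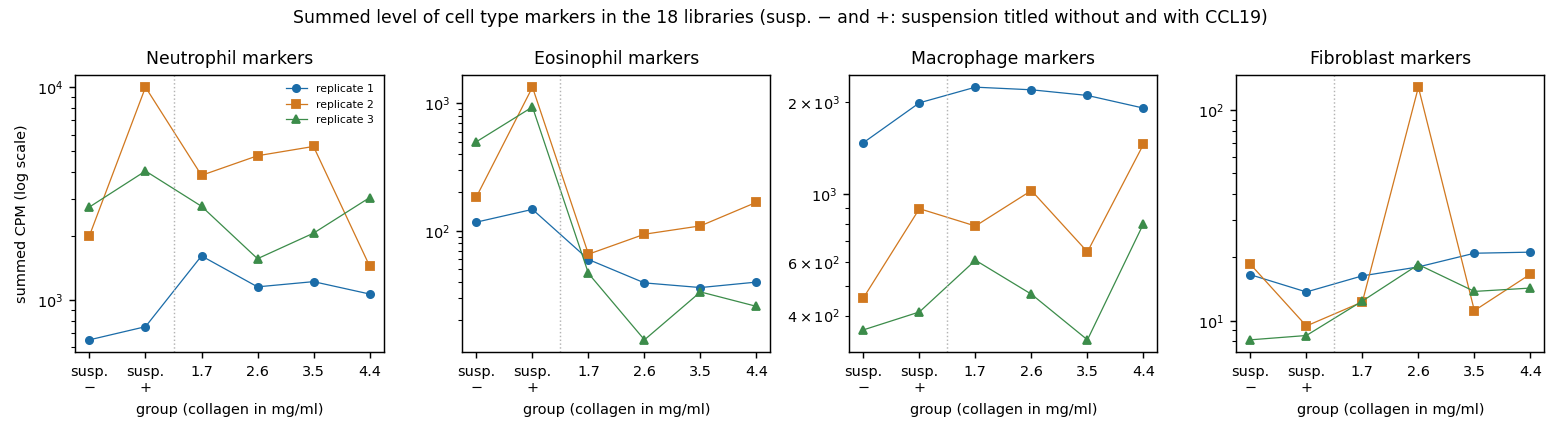
Summed CPM (log axis) of neutrophil, eosinophil, macrophage and fibroblast markers in each library, with lines joining the libraries of 1 replicate. Suspension (+) replicate 2 had the highest neutrophil sum (10027 CPM), replicate 1 the highest macrophage sums, and collagen (2.6 mg/ml) replicate 2 a fibroblast sum of 128 CPM.

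Genes with the most similar pattern were found by Pearson's r of log2 CPM after the replicate mean was subtracted, over 18 libraries that share groups and lanes. Mmp9 was closest to Ly6g (0.93), a neutrophil surface marker, then to Timp2 (0.915) and Afg3l1 (0.912). Mmp13 was closest to Fam117b (0.866), C330013E15Rik (0.852) and its neighbour Mmp12 (0.85). Mmp14 was closest to Ms4a4c (0.919), Slc6a13 (0.908) and the complement protease gene C1ra (0.898).
Mmp25 was closest to Zfp282 (0.924), Gnpat (0.921) and Armh3 (0.915), and Timp2 to Vps52 (0.937), Sidt2 (0.927) and Fto (0.925). Timp3 was closest to Pgm2l1 (0.951), D030056L22Rik (0.949) and Thap12 (0.948). Between members called in opposite directions with the block, r ran from -0.766 for Mmp9 and Timp3 to -0.227 for Mmp14 and Timp2. It was -0.734 for Mmp25 and Timp3. The group differences remained in these values, so a negative r follows from the opposite directions and is not separate evidence.

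Suspension (+) and suspension (-) were compared last. No member and no other gene (0%) passed the test with or without the block. Among members, Mmp9 alone had an unadjusted p under 0.05 with the block (0.02929) and no member without it. The share of all genes under 0.05 was not counted. Mmp9 differed by 0.86 (SE 0.50, edgeR adjusted p = 0.761) without the block, with suspension (+) the higher in all 3 replicates.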

How the data were processed

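The authors deposited 1 table of raw whole-number counts per Ensembl gene for 18 libraries. Per the labels and methods, these came from 50-base single-end stranded mRNA reads aligned with STAR 2.7.0f to GRCm38. The study names RSEM for its expression values in TPM. Whether RSEM also gave the deposited counts, the strand setting and the handling of multi-mapping reads are not given in the sources used here. Counts were filtered with filterByExpr, scaled by TMM and tested with edgeR 4.0.16 (quasi-likelihood F-test, R 4.3.3) in 1 fit of 18 libraries and 6 groups, with Benjamini-Hochberg adjustment over 13844 genes and a false discovery rate of 0.1, the threshold of the study. The study names DESeq2, and DESeq2 1.42.0 was an alternative. Standard errors are the fold change over the root of F. CPM are counts over TMM-effective library sizes, with a prior count of 2 on the log2 scale. Positions are from GENCODE M21 (GRCm38).

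Same-numbered libraries share a date and lane in their names. Their deviations from the group means had a mean r of 0.434 over 45 pairs (lowest -0.149). Depth gave a floor of 3 counts per library, which covers counting error only. All 10 members are named in every comparison, from each other list up to 3 called genes of largest fold, and for each called member the 3 most similar genes. Members and lists were chosen with earlier results of these data known. Scripts were tested on simulated data. Leave-out fits with the replicate block, and those without collagen (2.6 mg/ml) replicate 2 or suspension (+) replicate 2, were added after seeing the data, as was the count of libraries that separate inside each replicate.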

Additional observations from a re-analysis of the deposited data

Results flagged for a closer look

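In the 6 suspension libraries, 1 library stood apart from the rest for 3 of the 10 members. It was suspension (+) replicate 2 each time, the library with the highest summed neutrophil markers. The rule flags about 1 in 20 sets of 6 alike samples, but these libraries came from 2 groups and 3 replicates. The 3 flags were not independent (r = 0.915 for Mmp9 and Timp2). The share of all genes so flagged was not counted. The gap of log2 CPM to the next library, as a share of the whole range, was 0.681 for Mmp8 (299 CPM), 0.644 for Mmp9 (257 CPM) and 0.64 for Timp2 (34.0 CPM), each above Dixon's 95% critical value for 6 samples. Without that library Mmp9 was -0.62 in collagen against suspension (edgeR adjusted p = 0.1999).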

How the results depend on the processing

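Settings named here count members called out of 10. Collagen against suspension gave 3, and 6 with the replicate block, 6 with the block and GC and length offsets, 8 in DESeq2 with the block and 6 with no filter on low counts. Leaving out libraries or replicates gave 1 to 3 without the block and 4 to 7 with it. The density slope gave 0, and 1 with the block and offsets. Collagen (4.4 mg/ml) against collagen (1.7 mg/ml) gave 0, and 2 with the block and offsets or in DESeq2 with the block. Against suspension, collagen (1.7 mg/ml) gave 0, and 2 under the same pair of settings. Collagen (2.6 mg/ml) gave 1, and 4 with the block, 4 with offsets too, 2 in DESeq2 and 5 in DESeq2 with the block, and leaving out libraries gave 0 to 1, or 1 to 5 with the block. Collagen (3.5 mg/ml) gave 1, and 4 with the block, with offsets and in DESeq2 with the block, and 0 with the libraries compared alone or at a rate of 0.05. The 4 with the block and offsets were Mmp9, Mmp14, Timp2 and Timp3, so Mmp14 took the place of Mmp25. Leaving out libraries there gave 0 to 1, or 1 to 4 with the block. Collagen (4.4 mg/ml) gave 1, and 7 with the block, 8 with offsets too, 3 in DESeq2, 7 in DESeq2 with the block, 6 with no filter and 2 with the libraries compared alone. Mmp8 was among the 8 with offsets. Leaving out libraries gave 0 to 4, or 4 to 7 with the block. The suspension groups gave 0 in every setting run. The causes of these moves were not tested.

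Values that changed sign, in log2 units, were not called themselves, although Mmp12 was called higher in 3 other settings (the block with offsets, DESeq2 with the block and the block without replicate 1). In collagen against suspension, leaving out a library or replicate gave Mmp8 -0.170 to 0.115 without the block, and 0.0179 and 0.0436 with it where replicate 2 or suspension (+) replicate 2 was left out. Mmp12 ran from -0.11 to 1.14 and was also -0.04 without suspension (+) replicate 2. Mmp19 was 0.00227 with the block, 0.060 with offsets too and 0.0484 in DESeq2 with the block. Leaving out gave Mmp19 -0.80 to 0.514, and 0.614, 0.0206 and 0.00022 with the block without replicate 1, collagen (2.6 mg/ml) replicate 2 and suspension (+) replicate 2. For the slope, leaving out gave Mmp9 -0.21 to 0.0671 (0.00717 with the block without replicate 1), Mmp25 -0.20 to 0.0502 (0.0253 and 0.00248 with the block without replicate 2 and collagen (4.4 mg/ml) replicate 2), Timp1 -0.0462 to 0.532 and Timp2 -0.086 to 0.144. Timp2 was also -0.00167 with no filter, -0.0642 without collagen (4.4 mg/ml) replicate 2, and -0.0597 and -0.0127 with the block without replicate 2 and that library.

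In collagen against suspension, 38.6% of all called genes were higher without the block, 44.7% with it and 51.2% with offsets too (2660 higher, 2531 lower), against 1077 and 1713 without the block, and 50.6% in DESeq2 with the block (2721 and 2660). Depth limits Timp3, at 12 to 215 counts.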
